A study of Mus musculus with 4 samples.

Results

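The genes described here are the cytosolic ribosomal proteins, the protein parts of the ribosomes that translate messenger RNA in the cytoplasm. They were taken by name from the array files: every gene named Rpl or Rps with a number (and, where present, the ending a, l or x), plus Rplp0, Rplp1, Rplp2 and Rpsa. This gave 80 genes of 27827 gene names on the array, 48 of the large and 32 of the small subunit, and each was read by its brightest probe. The rule used names and brightness, and the set itself was proposed with earlier results of these data known. The RNA came from cultured mouse spermatogonial stem cells, the testis germ cells that renew themselves and give rise to sperm, of strain C57/BL6 x DBA/2 F1 and age day 5. Control cells stayed in the normal serum-free medium, which holds GDNF at 40 ng/ml and FGF2 at 5 ng/ml. Treated cells were in medium without FGF2 and with SU5402, an inhibitor of FGF receptors, for 12 h, and no control held SU5402 alone. Each of 4 two-colour arrays carried 1 treated sample (green, Cy3) and 1 control sample (red, Cy5), and the design text calls the samples biological replicates.

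A ribosome has a small subunit, which reads the messenger RNA, and a large subunit, which joins amino acids. Its proteins are needed in matched amounts, and growth factors acting through mTOR raise the translation of their messenger RNAs, which begin with a run of pyrimidines (C and T in DNA) called a 5′ TOP. Arrays measure the amount of these RNAs and not their translation.

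All 4 arrays sat on 1 slide and were read in 1 scan. The log2 ratios of treated over control correlated across genes with an r between 0.906 and 0.947 for pairs of arrays, and between 0.846 and 0.951 across the 80 ribosomal protein genes (genes are not independent replicates). No spot was saturated. Dyes were not swapped, so a dye effect specific to a gene and the treatment cannot be told apart. Loess sets each array's ratios against their own trend, and a shift common to every gene would not be seen. In RNA from a whole culture, fewer cells of a type and less RNA per cell cannot be told apart.

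Most ribosomal protein RNAs were lower after FGF2 was withdrawn and its receptors were inhibited, and a small number were higher. Of the 80 genes, 53 were called lower and 8 higher by limma with a Benjamini-Hochberg adjusted p under 0.05, and 19 were not called. Over all 18490 genes tested, 68.4% were called, 30.9% lower and 37.5% higher, against 66.2% and 10% of the ribosomal protein genes. The median log2 ratio of the 80 genes was -0.54 (quartiles -0.79 and -0.06), beside 0.02 over all genes tested. The median of the 80 was -0.53, -0.56, -0.41 and -0.56 on arrays 1 to 4. All treated levels lay below all control levels for 50 of the 80 genes (27.1% of all genes tested), and above them for 9 (34.1% of all genes tested). Scaling changed this split. Of the ribosomal protein genes called, 13.1% were higher as given, 2.82% with median centring in place of loess and 29.1% with median-centred scanner signals. For all genes called, these shares were 54.9%, 50.3% and 50.4%. With a narrow loess that left the members' probes out, 25.9% of the ribosomal protein genes called were higher, and 53.7% of all genes called.

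**Figure D1:**
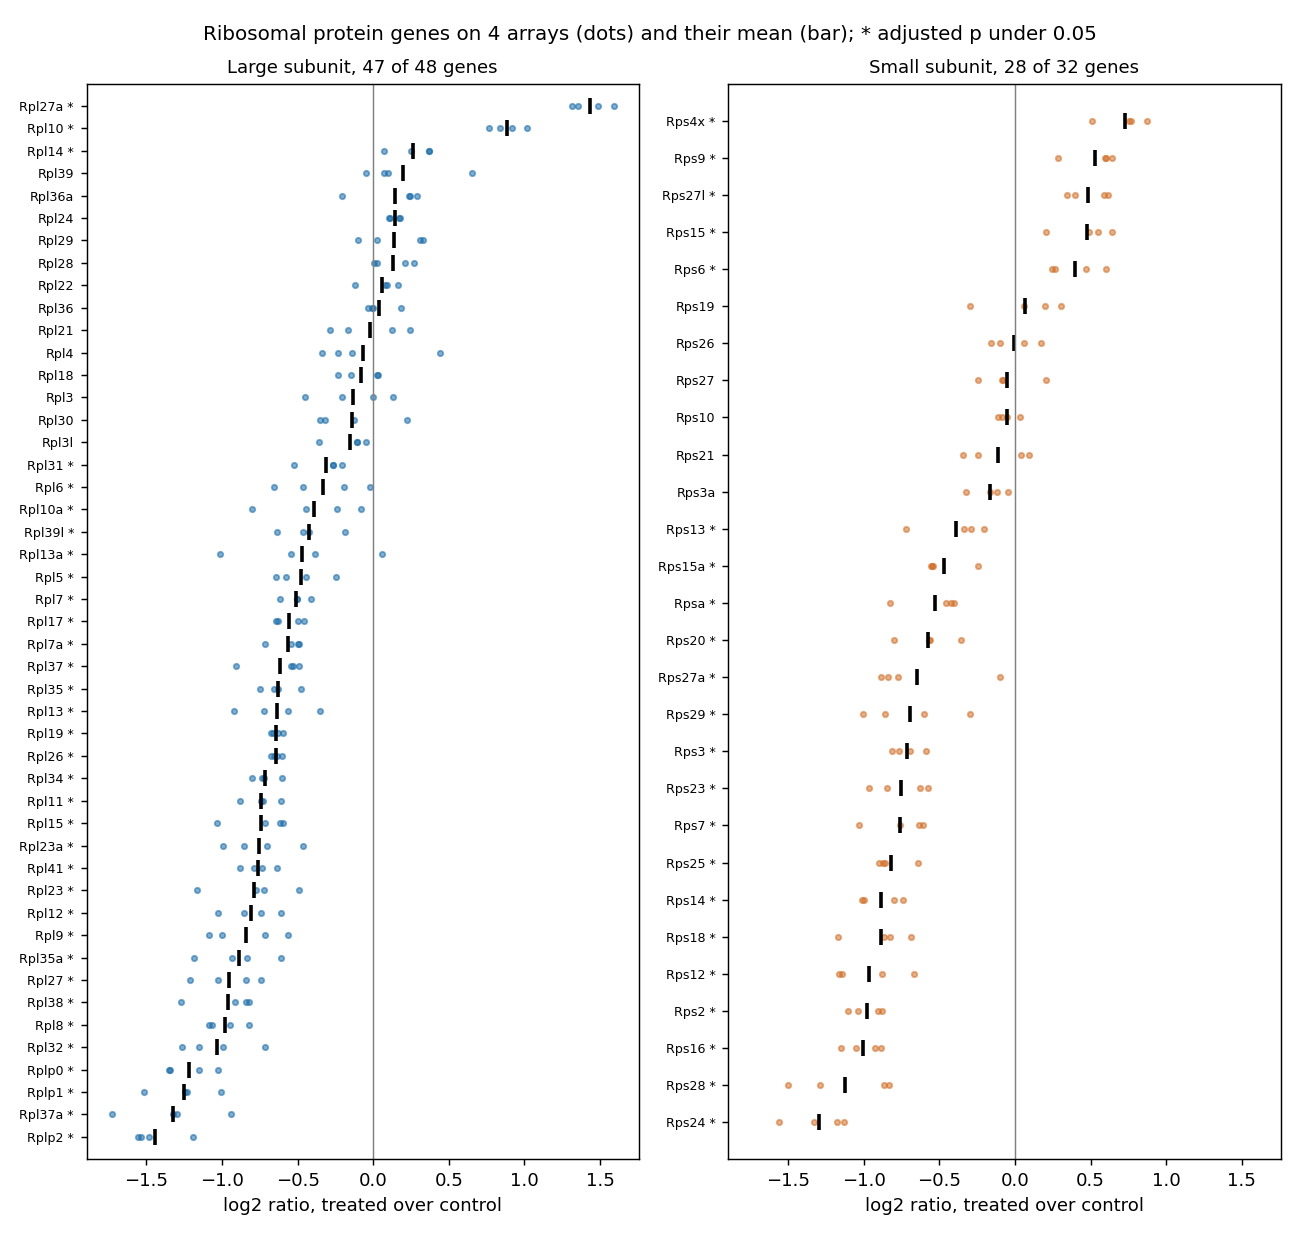
Log2 ratio of treated over control for 75 of the 80 ribosomal protein genes on each of the 4 arrays, ordered by mean. The genes run from -1.44 (Rplp2) to 1.44 (Rpl27a), and all 8 genes called higher are drawn.

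The 3 proteins of the stalk, the flexible arm of the large subunit that recruits elongation factors, were all among the 6 lowest genes. Rplp2, which forms the arm with Rplp1, had treated levels (normalized intensity) of 138900, 152100, 185100 and 149000 against control levels of 402500, 425800, 422000 and 437800. Every treated level lay below every control level, and the log2 ratio was -1.44 (SE 0.0812, n = 4, limma adjusted p = 4.12e-07), a 2.72-fold difference. Rplp1 had treated levels of 151900, 138500, 125400 and 122000 against 305400, 327800, 294100 and 349000. Its log2 ratio was -1.25 (SE 0.0882, limma adjusted p = 1.84e-06). Rplp0, the base on which the arm is mounted, had treated levels of 151900, 130000, 148500 and 135200 against 310300, 331300, 330400 and 343100. Treated and control levels did not overlap for either gene, and Rplp0 stood at -1.22 (SE 0.0786, limma adjusted p = 9.91e-07). A second probe of Rplp0 gave -1.28 and another, dimmer one 0.01, which was not called.

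Rpl37a, a zinc-binding protein of the large subunit, and Rps24 of the small subunit were also among the 6 lowest genes. Rpl37a had treated levels of 175300, 136200, 135100 and 112500 against control levels of 336500, 340500, 332300 and 373200. Its log2 ratio was -1.32 (SE 0.1134, limma adjusted p = 7.01e-06), with the smallest difference on array 1 (-0.94) and the largest on array 4 (-1.73). Rps24, one of the genes mutated in Diamond-Blackfan anaemia, had ratios of -1.33, -1.56, -1.18 and -1.13 and a mean of -1.30 (SE 0.0856, limma adjusted p = 1.15e-06). Treated and control levels did not overlap for either gene.

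Among the 8 genes called higher, Rpl27a and Rpl10 of the large subunit had the largest ratios. Rpl27a had treated levels of 39100, 31680, 35560 and 33760 against control levels of 12990, 12410, 12690 and 13570. The groups did not overlap, and the log2 ratio was 1.44 (SE 0.0742, limma adjusted p = 2.38e-07), a 2.71-fold difference. A second, dimmer probe named Rpl27a gave -0.47 and was called lower, so the direction of this gene rests on the probe. Rpl10, which joins the large subunit late in its assembly, had treated levels of 111200, 110700, 105900 and 102000 against 55030, 58660, 62280 and 57100. The groups did not overlap, and the log2 ratio was 0.88 (SE 0.0715, limma adjusted p = 4.76e-06), with 0.90 at a second probe. The brighter Rpl10 probe is placed by the file on another chromosome than the gene, and the second probe on the gene's own.

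The other 6 genes called higher were Rps4x, Rps9, Rps27l, Rps15, Rps6 and Rpl14. Rps4x, encoded on the X chromosome, had treated levels of 156600, 146500, 152400 and 134300 against control levels of 91960, 86680, 83190 and 94550, which did not overlap. Its log2 ratio was 0.73 (limma adjusted p = 3.33e-05), but its second probe, dimmer by 9.23 log2 units, gave -0.03 and was not called. Rps9 had ratios of 0.60, 0.64, 0.28 and 0.60 (limma adjusted p = 0.000303), the third array being low. Rps15 had 0.55, 0.49, 0.21 and 0.64 (limma adjusted p = 0.000833), again low on the third array. Rps6, whose protein is phosphorylated by S6 kinase downstream of mTOR, had 0.24, 0.26, 0.47 and 0.60 (limma adjusted p = 0.00201). Its second probe, dimmer by 8.73 log2 units, gave 1.16 but was well above background in the treated channel only. Rpl14 was the smallest of the 8, at 0.27 (limma adjusted p = 0.0124). For all 8 genes the treated levels lay above the control levels. With median centring 2 members, Rpl10 and Rpl27a, were still called higher.

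Sequences around the transcription start are shown for some members at both ends of the range, because a TOP messenger RNA begins with a pyrimidine run. Rps6 was taken for its role, and Rps27l and Rps15, among the 6 highest, are not printed. A run elsewhere in the window is not such a mark. Each window runs from 25 bases before the RefSeq start to 15 after it, 5′ to 3′ on the gene's strand (RefSeq, GRCm38.p6), and capitals mark its longest run of C and T. The first 4 genes were lower and the others higher.
Rplp2: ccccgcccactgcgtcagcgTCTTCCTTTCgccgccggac
Rpl37a: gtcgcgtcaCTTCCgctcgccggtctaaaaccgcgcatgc
Rps24: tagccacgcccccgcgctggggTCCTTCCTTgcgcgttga
Rplp0: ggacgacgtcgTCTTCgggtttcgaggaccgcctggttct
Rpl27a: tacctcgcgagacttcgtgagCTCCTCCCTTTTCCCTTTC
Rpl10: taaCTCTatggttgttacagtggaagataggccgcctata
Rps4x: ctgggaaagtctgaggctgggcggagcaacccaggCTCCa
Rps9: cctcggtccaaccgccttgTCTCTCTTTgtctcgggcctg
Rps6: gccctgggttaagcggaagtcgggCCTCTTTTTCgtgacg
The windows lie, on the plus strand unless said, at chr7:141447626-141447665 (Rplp2), chr1:72711235-72711274 (Rpl37a), chr14:24490653-24490692 (Rps24) and chr5:115559442-115559481 (Rplp0). They lie at chr7:109519170-109519209 (Rpl27a), chrX:74270791-74270830 (Rpl10) and chr7:3704016-3704055 (Rps9), and on the minus strand at chrX:102189377-102189416 (Rps4x) and chr4:86857353-86857392 (Rps6).

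Long and short runs stood at both ends of the range. The run was 10 bases in Rplp2 and 9 in Rps24, but 5 in Rpl37a and in Rplp0. Among the higher genes it was at least 19 bases in Rpl27a, 10 in Rps6 and 9 in Rps9, but 4 in Rpl10 and in Rps4x. In Rpl27a the run reached the end of the window, so its full length was not measured. Counted from the RefSeq start, the run began at base -5 in Rplp2, -3 in Rps24, -4 in Rpl27a, -1 in Rps6 and -6 in Rps9. It began at -16 in Rpl37a, -14 in Rplp0 and -22 in Rpl10, ending before the start, and at 11 in Rps4x. In the higher genes not printed, it was 9 bases from -22 in Rps27l and 7 from -19 in Rps15. Both of these also ended before the start. Runs were counted anywhere in the window. A run of C and T of at least 7 bases was in 32 of the 59 members with a RefSeq window (54.2%), and in 24.7% of 27025 windows of all genes. It was in 18 of 38 members called lower, 6 of 8 called higher and 8 of 13 not called. The letters CCGGAAG, on either strand of the 300 bases around the start, were in 40.7% of the members and 9.12% of all genes. Both are matches of letters in a window set by the RefSeq start, and are given as descriptions.

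The remaining members called lower made a broad band. In all 9 genes were at least 2-fold lower, Rps28, Rpl32 and Rps16 among them. Another 20 had log2 ratios between -1 and -0.7: Rps2, Rpl8, Rps12, Rpl38, Rpl27, Rpl35a, Rps18, Rps14, Rpl9, Rps25, Rpl12, Rpl23, Rpl41, Rps7, Rps23, Rpl23a, Rpl15, Rpl11, Rps3 and Rpl34. Like the brighter Rpl10 probe, the only probe of Rpl12 (-0.81) is placed by the file on another chromosome than the gene. Between -0.7 and -0.5 were 13, among them Rps29, Rps27a, Rpl26, Rpl19, Rpl13, Rpl35, Rpl37, Rps20, Rpl7a, Rpl17, Rpsa and Rpl7. Above -0.5 were 11, among them Rpl5, Rps15a, Rpl13a, Rpl39l, Rpl10a, Rps13, Rpl6 and Rpl31. The 19 genes not called were Rps3a, Rpl3l, Rpl30, Rpl3, Rps21, Rpl18, Rpl4, Rps10, Rps27, Rpl21, Rps26, Rpl36, Rpl22, Rps19, Rpl28, Rpl29, Rpl24, Rpl36a and Rpl39. Of 48 large subunit genes 32 were lower and 3 higher (median -0.55), and of 32 small subunit genes 21 were lower and 5 higher (median -0.50). The SD over the 80 genes' ratios was 0.55, above the median SD of 0.18 between arrays for a single member. That SD between arrays repeats the same probe and leaves out differences between probes. For the 41 members with several kept probes, the median spread between probes of the same gene was 0.56. How far the members differ from each other was therefore not settled.

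Rpl5 and Rpl11, which bind Mdm2 when ribosome assembly is disturbed, were at -0.48 (limma adjusted p = 0.000657) and -0.74 (limma adjusted p = 1.65e-05). Rpsa, also known as the laminin receptor, was at -0.53 (limma adjusted p = 0.000508). Rps14, lost in the 5q- syndrome, was at -0.89 (limma adjusted p = 6.87e-06), while Rps19, mutated in Diamond-Blackfan anaemia, was at 0.07 and not called. Rps27a, made as a fusion with ubiquitin, was at -0.65 (limma adjusted p = 0.00129), with -0.84, -0.77, -0.10 and -0.89 on arrays 1 to 4. Rpl5 was not called with median-centred scanner signals (-0.13) or the narrow loess (-0.14).

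Ribosomal proteins outside the naming rule were mostly lower: of 6 such genes 5 were called lower and 1 higher (median -0.63). Fau, a ribosomal protein made as a fusion with a ubiquitin-like protein, was at -0.87 (limma adjusted p = 9.33e-05). Gnb2l1 (Rack1), a scaffold on the small subunit, was at -0.66, but its second probe gave 0.27 and was called higher. Rpl36al was the gene called higher, at 0.44.

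Paralogs, second genes for the same ribosomal position, were set against their partners within each array. Rpl39l, abundant in male germ cells, was at -0.43 and called lower (limma adjusted p = 0.00145), and Rpl39 at 0.19 was not. Rpl39l minus Rpl39 was -0.62 ± 0.198 (SD, n = 4), negative on 4 of 4 arrays, with an exact two-sided permutation p of 0.125, the smallest that 4 arrays allow. Rps27l, a p53 target, was at 0.49 (limma adjusted p = 0.000348) and Rps27 at -0.05, not called. Rps27l minus Rps27 was 0.54 ± 0.139 (SD, n = 4; exact permutation p = 0.125), but 0.24 with scanner signals. Rpl3l, a striated muscle form, and Rpl3 were both not called.

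The ratio of a member moved with how bright its probe was. Over the 80 genes, brightness (mean log2 intensity of both channels) and log2 ratio had a Pearson r of -0.50 and a Spearman rho of -0.71, a description over genes that share arrays and dyes. Of the 28 brightest members, 26 were lower and 0 higher (median -0.85). Of the next 19, 16 were lower and 0 higher (median -0.64). Of the next 23, 9 were lower and 4 higher (median -0.08), and of the 10 dimmest 2 were lower and 4 higher (median 0.06). Other genes in the brightness range of the first of these groups had a median of -0.33 (42 genes), and those in the range of the next one of -0.32 (83 genes). In the range of the 23 members, with their median of -0.08, 424 other genes had a median of -0.02. Among the 100 brightest genes, 36 were members, with a median of -0.76 against -0.40 for the others. Of 230 other genes as bright as most members, 115 were lower and 58 higher (median -0.21). The other genes are those outside the naming rule, so they still include ribosomal proteins such as Fau (-0.87) and Gnb2l1 (-0.66). The part of brightness in the members' result was not tested.

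**Figure D2:**
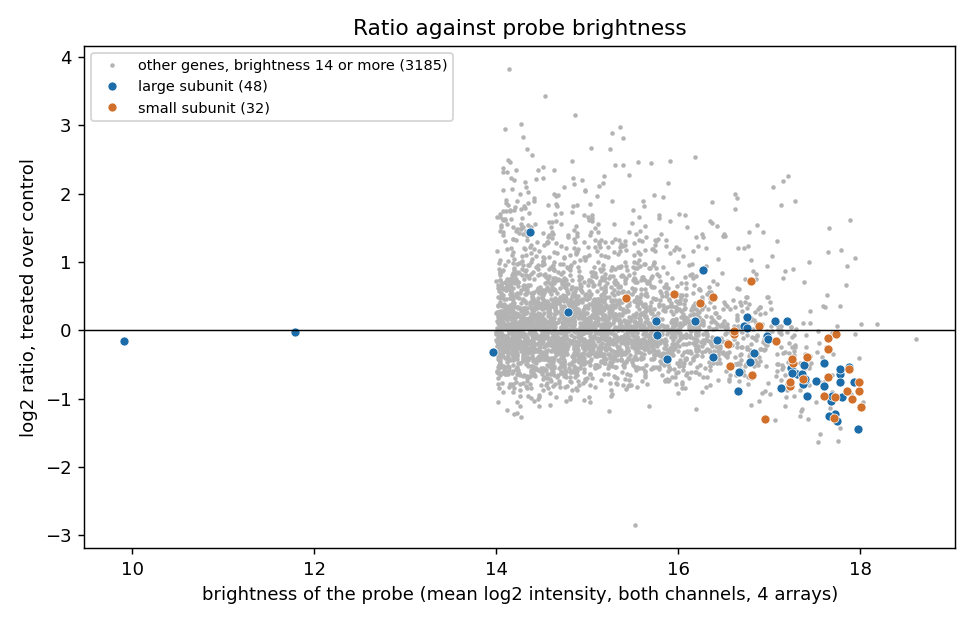
Log2 ratio of treated over control against brightness (mean log2 intensity of both channels) for members and other genes. The 28 brightest members have a median of -0.85, and the 42 other genes as bright have one of -0.33. The other genes include ribosomal proteins outside the naming rule, such as Fau and Gnb2l1.

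Second probes gave fewer lower calls. For 41 members with several kept probes, the brightest probe called 27 lower, and the second brightest called 14 of these lower, 9 not and 4 higher. In a fit of second probes alone, 14 of the 41 were lower (34.1%) and 7 higher. Of all 6586 genes tested that way, 27% were lower and 37.5% higher. The 7 include Rps6 at 1.16, whose second probe passed the filter through the treated channel only. The sign of the ratio turned between the probes in 18 of the 41 genes, 12 of them called lower by the brightest. The median over the 41 genes was -0.51 by the brightest probe and 0.04 by the second. Where the probes were within 1 log2 unit in brightness, 9 of 13 lower calls held at the second probe. Where they were further apart, 5 of 14 did. Rps28 was at -1.12 and -1.13 by its brightest probes, and Rps2 at -0.98 and -1.29. By contrast Rpl23 was at -0.79 and 0.55, Rps20 at -0.57 and 0.84, Rpl17 at -0.56 and 0.19, and Rpl11 at -0.74 and 0.18. Each was called lower and then higher in a fit over all kept probes. The second probe was dimmer by 8.24 log2 units in Rps20, 8.53 in Rpl11, 2.64 in Rpl23 and 0.63 in Rpl17. With second probes fitted 1 per gene, Rpl11 was not called (limma adjusted p = 0.067). Ribosomal protein genes have many near-identical processed copies in the genome, and a probe may also read RNA of a copy. Why the probes of a gene differ was not tested, and the direction of single genes is uncertain.

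**Figure D3:**
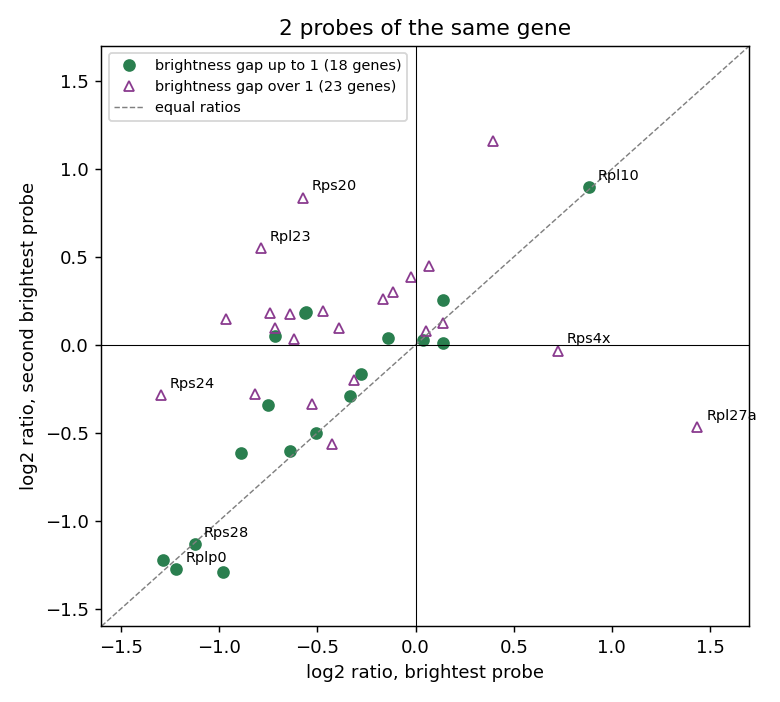
Log2 ratio by the second brightest probe against that by the brightest probe for the 41 members with several kept probes. The second probe is higher for 32 of the 41 genes.

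**Figure D4:**
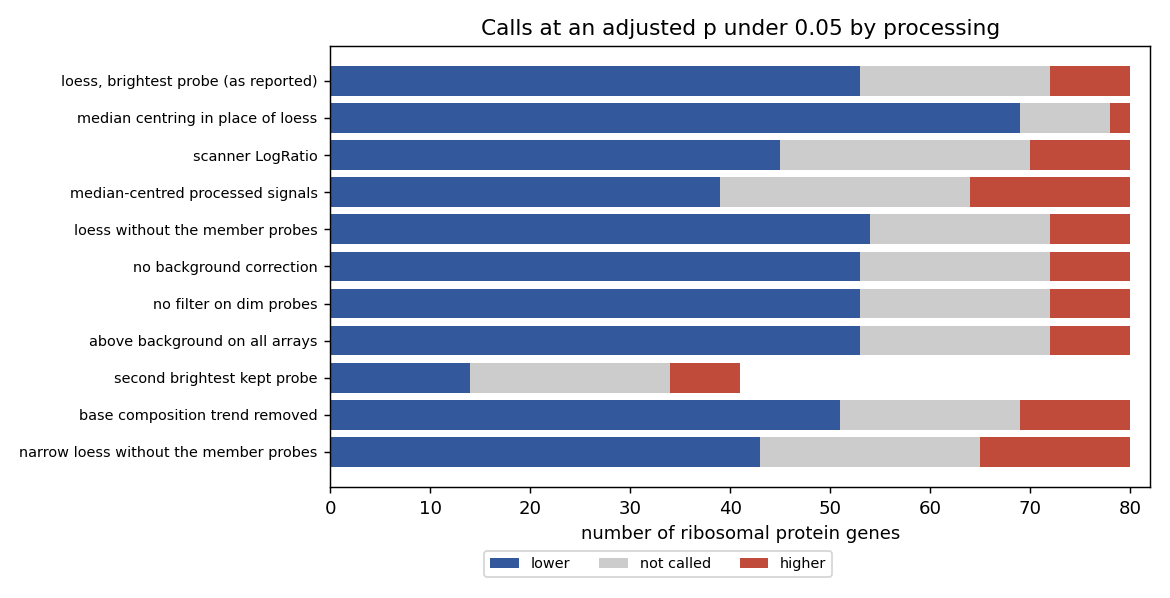
Number of the 80 members called higher, lower or not called under each way of processing (41 members for the second probe). Lower calls outnumber higher calls in every setting drawn, from 69 against 2 with median centring to 14 against 7 with second probes. With second probes 34.1% of the members were lower, beside 27% lower and 37.5% higher of all genes tested that way.

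Other genes of translation are given beside the 37.5% higher and 30.9% lower of all genes tested. Of 30 kept initiation factors, 11 were higher and 11 lower (median 0.01), close to those shares, among them Eif4g3 at 0.81 and Eif3g at -0.80. Of 25 genes of elongation and of other TOP messenger RNAs, 7 were higher and 9 lower (median -0.09). Pabpc1, the poly(A)-binding protein, was at -1.32 by its brightest probe and -0.19, not called, by its second, and Tpt1 was at 1.16. Of 30 genes of ribosomal RNA synthesis and ribosome assembly, 17 were lower and 0 higher (median -0.30). They included Polr1b, a subunit of RNA polymerase I, at -1.15 (limma adjusted p = 9.04e-07), and Rrp9, a protein of the U3 particle, at -1.16 (limma adjusted p = 1.93e-06). Without array 1, 1 of the 30 was called higher.

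Of 23 genes of mTOR and S6 kinase signalling, 12 were higher and 5 lower (median 0.18). Genes acting for and against mTOR stood on both sides. Of its inhibitors, Ddit4 was higher at 1.09 (limma adjusted p = 4.94e-05) and Depdc6 (Deptor) at 0.88 (limma adjusted p = 6.86e-05), while Tsc1 was lower at -0.53 (limma adjusted p = 8.1e-05) and Tsc2, at -0.15, was not called. Sesn3, another, was at 1.68 by its brightest probe and 0.07, not called, by its second. The inhibitors Sesn2 at 0.80, Akt1s1 at 0.58 (-0.22 on array 1) and Sesn1 at 0.19 were also called higher. Rheb, the activator of mTOR, was higher at 0.37 (limma adjusted p = 0.000729), and so was the S6 kinase Rps6kb1 at 0.86 (limma adjusted p = 3.37e-06). The mTOR gene itself (Frap1 in the files) was at -0.16 and not called. Of 75 mitochondrial ribosomal protein genes, whose products translate inside mitochondria, 19 were higher and 13 lower (median 0.06).

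**Figure D5:**
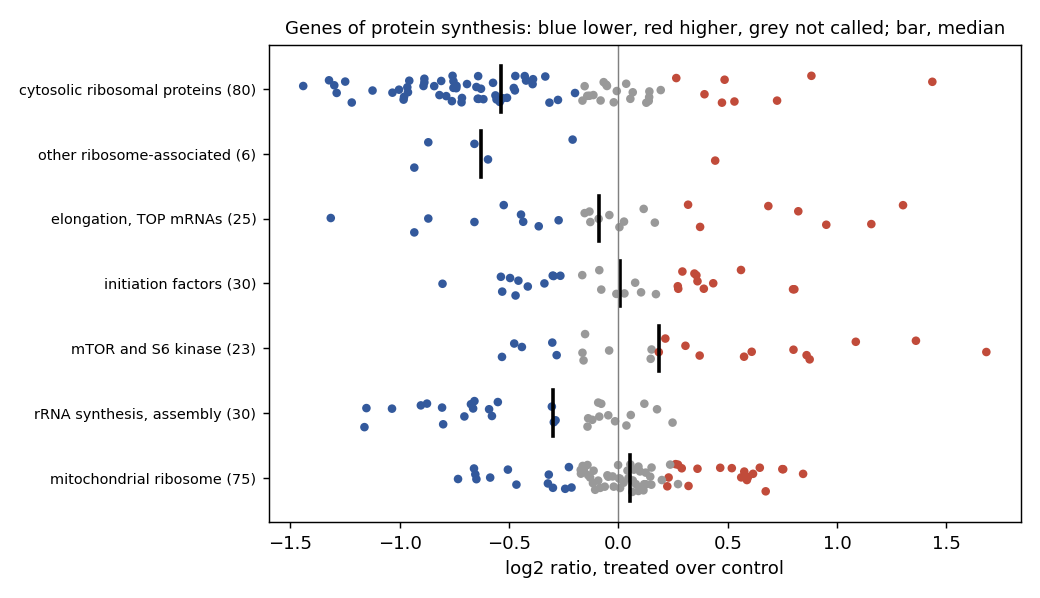
Log2 ratio of treated over control for genes of each translation list, with the median marked. The cytosolic ribosomal proteins have a median of -0.54 and the mitochondrial ones of 0.06.

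Markers of several cell types differed between the treated and control samples. Their counts stand beside 37.5% higher and 30.9% lower of all genes tested. Of 13 Sertoli cell markers 12 were higher and 0 lower, and their summed level was 492000 to 522000 in treated and 114000 to 121000 in control samples. Of 13 fibroblast or feeder cell markers 12 were higher and 0 lower (1590000 to 1710000 against 596000 to 673000). Of 8 Leydig and peritubular markers 7 were higher and 1 lower (221000 to 265000 against 57400 to 64300). All 11 macrophage and blood markers were lower (52800 to 65600 against 132000 to 156000), and of 6 endothelial markers 2 were higher and 3 lower. Of 21 spermatogonial markers 13 were lower and 1 higher (422000 to 479000 against 576000 to 614000). The part of these shifts in the ribosomal protein result was not tested.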

How the data were processed

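RNA of 4 treated and 4 control samples was measured on 4 two-colour Agilent arrays. The deposited spot signals are linear intensity values, which the submitters' processing notes credit to Agilent Feature Extraction 10.5.1.1. The deposited LogRatio is log10 of red over green processed signal, per the file headers. The deposited series matrix holds log2 values, which matched log2 of green over red processed signal for 100% of 41174 probes within 0.001. Its column medians were -0.26, 0.01, 0.11 and -0.06, so it was not centred.

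Background was corrected by normexp (offset 50) and ratios were normalized within arrays by loess, with limma 3.58.1 in R 4.3.3. Control spots had weight 0, and 141 to 171 outlier spots per array were left out. A probe was kept when 1 channel was well above background on 3 or more of the 4 arrays (27722 probes), and each gene name of the file took its brightest one. The 80 members all passed, with 134 of 137 probes. The log2 ratio was tested against 0 with lmFit and eBayes, two-sided, with Benjamini-Hochberg adjustment over 18490 genes and a threshold of 0.05. Levels are per channel after loess and Aquantile. The number of arrays limits the precision.

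The 6 lowest and 6 highest called members, and a list of others by role, were named with values, and some genes are not reported here by name. The members and lists were chosen with earlier results of these data known. Alternatives covered normalization, background, filter, probe, base composition and each array left out. The procedure was tested on simulated data.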

Additional observations from a re-analysis of the deposited data

Results flagged for a closer look

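In 8 members 1 array stood far from the other 3 by Dixon's test, which chance does for about 1 in 20 groups of values. The third array was the distant one in 4 of these: Rps27a at -0.10, Rps15a at -0.24, Rpl36 at 0.19 and Rps9 at 0.28. The fourth was distant for Rps25 (-0.65) and Rpl36a (-0.20), the second for Rpl37 (-0.91) and the first for Rpsa (-0.83).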

How the results depend on the processing

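Of the 53 lower calls, 38 were kept on the same probe in every alternative run, and 29 also at the second probe where there was one. Of the 8 higher calls, 2 were kept on the same probe and Rpl10 also at its second. The members' median was -1.11 with median centring in place of loess, -0.39 with the scanner's own ratio, -0.28 with median-centred processed signals, 0.041 with second probes and -0.31 with a narrow loess without member probes, which was added after the data were seen. Higher calls numbered 2 with median centring, 16 with processed signals and 15 with the narrow loess. With second probes 14 of 41 members were lower (34.1%), beside 27% of all genes tested that way. Leaving out 1 array gave 50 to 52 lower and 7 to 9 higher calls and a median of -0.55 to -0.51. With median centring the sign turned for Rpl39 (-0.31), Rps6 (-0.033) and Rps19 (-0.46). Rps27 turned with the scanner ratio (0.27), processed signals (0.38) and the narrow loess (0.32). Second probes turned the sign in 18 of 41 genes, 12 of them called lower by the brightest probe, and among the genes named by rule in Rps4x (-0.033), Rpl27a (-0.47) and Rpl11 (0.18). Rps27l minus Rps27 was 0.74 with median centring, 0.24 with the scanner ratio and with processed signals, and 0.23 with the narrow loess. Rpl3l minus Rpl3 was 0.54 with median centring and -0.47 with the scanner ratio and with processed signals, beside -0.02 as processed here. The cause of these shifts was not tested. The median of all genes tested was -0.12 with the scanner ratio, where 41.7% of called genes were higher, against 54.9% as processed here. The test of each array's ratio against 0 already pairs its 2 samples, so no further pairing was added. A block for slide had 1 level.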
